A study of Mus musculus with 8 samples.

Results

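The keratin genes of the mouse lie in 2 clusters, and the state of their chromatin was read from lists of enriched regions in bone marrow stromal cells with and without Asxl1. Members were the protein-coding autosomal genes of the RefSeq table for mm10 (GRCm38.p6) whose whole symbol is Krt, a number and at most 1 further letter. There were 53 of them among 20661 autosomal coding genes, 27 in the type I cluster at chr11:99232761-100269951 and 26 in the type II cluster at chr15:101348315-102032026. The annotation classes Krt74 as a transcribed pseudogene, and it was left out. The study was a chromatin immunoprecipitation sequencing experiment on mesenchymal stem and progenitor cells (MSPCs) grown from the bone marrow of C57BL/6 mice and used at passages 5 to 10, a cultured stromal population that forms bone, fat and cartilage. The wild-type group had 1 library each for ASXL1, H3K4me2, H3K4me3 and H3K27me3, and the Asxl1-/- group had 1 library for each of the 3 histone marks, with no ASXL1 library. Both groups were cultures of the same strain. The labels give the same range of passages for both and not the passage of each library, so a difference in passage between genotypes is possible. The labels name no sort, so any epithelial or blood cell left in a culture was part of its library. The labels give neither the exons that the Asxl1 deletion removes nor the number of mice behind a culture, and the input sample was not analysed here.

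Keratins are intermediate filament proteins that assemble as pairs of 1 type I and 1 type II chain. Keratins 8, 18, 19 and 7 belong to simple epithelia, keratins 5 and 14 to the basal layer of stratified epithelia, keratins 1 and 10 to the layers above it, and the hair keratins to the shaft of the hair. Stromal cells are built on vimentin filaments, and keratin genes are generally silent in them. H3K27me3 is placed by Polycomb repressive complex 2 on silent genes. H3K4me3 marks active or poised promoters, and H3K4me2 marks promoters and enhancers. ASXL1 is a chromatin regulator known as a partner of the histone H2A deubiquitinase BAP1. Mutations of it occur in myeloid disease.

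The RefSeq promoter table (GRCm38.p6) held an entry of 300 bases, from 250 before to 50 after the transcription start, for 36 of the 53 keratin genes. Of these, 5 lay under an H3K4me2 island in at least 1 genotype, and they are printed for that reason. They are those of Krt8, Krt18, Krt7, Krt13 and Krt79. None of the 5 lay under H3K4me3 in either genotype. The promoters of Krt8 and Krt18 in wild type and of Krt79 in Asxl1-/- also lay wholly under H3K27me3. The Krt5 promoter is printed beside these 5 as a basal keratin promoter that lay wholly under H3K27me3 in both genotypes. Each runs 5′ to 3′ on the strand of the gene. Capitals mark CG dinucleotides and the motif TATAAA on either strand (TTTATA on the reverse). The positions are chr15:102004293-102004592 on the minus strand for Krt8, chr15:102027966-102028265 on the plus strand for Krt18, chr15:101412153-101412452 on the plus strand for Krt7, chr11:100121517-100121816 on the minus strand for Krt13, chr15:101940275-101940574 on the minus strand for Krt79 and chr15:101712856-101713155 on the minus strand for Krt5.
Krt8: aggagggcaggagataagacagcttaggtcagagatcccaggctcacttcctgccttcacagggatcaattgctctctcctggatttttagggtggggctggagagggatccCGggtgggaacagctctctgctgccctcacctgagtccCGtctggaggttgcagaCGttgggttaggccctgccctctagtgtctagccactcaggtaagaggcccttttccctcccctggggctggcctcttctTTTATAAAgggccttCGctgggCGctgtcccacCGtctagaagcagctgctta
Krt18: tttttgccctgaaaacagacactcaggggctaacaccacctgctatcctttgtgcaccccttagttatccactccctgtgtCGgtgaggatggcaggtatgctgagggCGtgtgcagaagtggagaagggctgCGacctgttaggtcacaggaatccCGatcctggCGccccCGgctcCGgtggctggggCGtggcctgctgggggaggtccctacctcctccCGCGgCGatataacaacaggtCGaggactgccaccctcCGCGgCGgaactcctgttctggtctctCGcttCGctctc
Krt7: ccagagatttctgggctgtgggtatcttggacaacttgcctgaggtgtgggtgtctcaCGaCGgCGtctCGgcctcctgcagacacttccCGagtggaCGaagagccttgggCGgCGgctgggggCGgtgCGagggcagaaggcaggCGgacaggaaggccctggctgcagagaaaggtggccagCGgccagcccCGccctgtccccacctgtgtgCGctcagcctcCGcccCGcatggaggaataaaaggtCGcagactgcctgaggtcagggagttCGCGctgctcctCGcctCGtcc
Krt13: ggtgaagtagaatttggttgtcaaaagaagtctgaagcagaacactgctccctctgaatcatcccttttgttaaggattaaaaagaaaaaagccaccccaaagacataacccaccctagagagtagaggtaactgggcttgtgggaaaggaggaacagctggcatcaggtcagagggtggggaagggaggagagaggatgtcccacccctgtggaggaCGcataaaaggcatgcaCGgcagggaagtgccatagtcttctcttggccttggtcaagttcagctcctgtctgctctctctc
Krt79: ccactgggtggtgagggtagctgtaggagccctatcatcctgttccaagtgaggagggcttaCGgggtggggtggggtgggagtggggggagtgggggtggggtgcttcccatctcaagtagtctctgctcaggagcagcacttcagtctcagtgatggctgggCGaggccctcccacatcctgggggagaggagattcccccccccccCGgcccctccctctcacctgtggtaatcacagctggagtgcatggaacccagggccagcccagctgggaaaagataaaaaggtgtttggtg
Krt5: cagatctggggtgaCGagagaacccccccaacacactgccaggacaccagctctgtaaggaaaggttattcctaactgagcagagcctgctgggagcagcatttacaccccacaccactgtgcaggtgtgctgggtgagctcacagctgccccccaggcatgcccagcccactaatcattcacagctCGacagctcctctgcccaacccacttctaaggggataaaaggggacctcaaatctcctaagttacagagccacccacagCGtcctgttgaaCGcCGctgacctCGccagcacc

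Keratin promoters were poor in CG dinucleotides. The median keratin promoter held 5 of them, against 14 over the 16456 autosomal coding genes with an entry, and a GC content of 48.9% against 56.7%. Krt7 with 21 and Krt18 with 17 CG dinucleotides had the most, and both code for keratins of simple epithelia. The Krt7 promoter alone held 4 copies of GGGCGG, the core of the GC box, which 2 keratin promoters (5.56%) and 47.3% of all promoters held on either strand. TATAAA, the letters of the TATA box, stood on either strand in 19 keratin promoters (52.8%) and in 13.5% of all promoters. In 13 keratin promoters (36.1%) it started 40 to 20 bases before the transcription start on the strand of the gene, which 2.91% of all promoters showed. None of the 6 printed promoters is among these 13, and in the Krt8 promoter TATAAA starts at -1, counted from the RefSeq start. Only these exact letters were searched, so variant forms of the TATA box were not counted. GCCNNNGGC, letters bound by AP-2 factors, was found in 7 keratin promoters (19.4%) against 20.0% of all, and TGANTCA, the AP-1 motif, in 1 (2.78%) against 7.17%. A match to such letters is a description of the window and not evidence of a bound factor.

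The 7 lists hold islands, the enriched intervals that the caller SICER joins from windows of 200 bp, as a start and an end with no read count or score. Depth and signal strength are therefore unknown, an island missing from a list may be a weaker signal, and with 1 library per target and genotype no test between genotypes was possible. The lists held between 14792 islands (H3K4me3 in Asxl1-/-) and 35291 (H3K4me2 in wild type) on the 19 autosomes, with median widths of 3000 to 8400 bp. Of 12 stromal markers, 11 had H3K4me3 in both genotypes, against 3 of 7 epithelial markers in wild type and 1 in Asxl1-/-, 1 and 2 of the 4 blood markers found on autosomes, and 1 and 0 of 4 endothelial markers. Over all genes the shares were 59.8% and 59.6%. The blood markers were Cd79a (3.6 and 6.0 kb) and, in Asxl1-/- alone, Kit (4.2 kb). H3K4me2 marked 11 and 12 of the stromal and 5 and 5 of the epithelial markers. It marked 2 and 2 of the blood and 1 and 1 of the endothelial markers, against 64.7% and 65.7% of all genes. Epcam carried H3K4me3 islands of 2.0 and 1.6 kb, Trp63 had no island of any library at its ends, and the part of admixed cells in the results below was not tested. Asxl1 had an H3K4me3 island of 7.2 kb in wild type against 6.2 kb in Asxl1-/-, which checks nothing about the genotype, and an H3K27me3 island of 23.2 kb in Asxl1-/- alone.

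A gene counts below as marked when an island comes within 1000 bp of either of its ends, because the gene table gives no strand. A mark was kept where both genotypes had it, lost where wild type alone had it and gained where Asxl1-/- alone had it. A width is that of the whole island, which can extend past the gene, and 8 keratin genes have an end of another coding gene within 2000 bp.

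Most keratin genes carried the Polycomb mark and few carried any other. H3K27me3 marked 40 of the 53 in wild type (75.5%) and 41 in Asxl1-/- (77.4%), where the share of all autosomal coding genes was 27.4% and 24.4%. H3K4me3 marked 6 (11.3%) and 4 (7.55%), against 59.8% and 59.6% of all genes. H3K4me2 marked 10 (18.9%) and 17 (32.1%), against 64.7% and 65.7% of all genes. ASXL1 marked 5 (9.43%), against 51.4% of all genes. The keratins thus stood above the genomic share for H3K27me3 and below it for the other marks in each library.

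**Figure D1:**
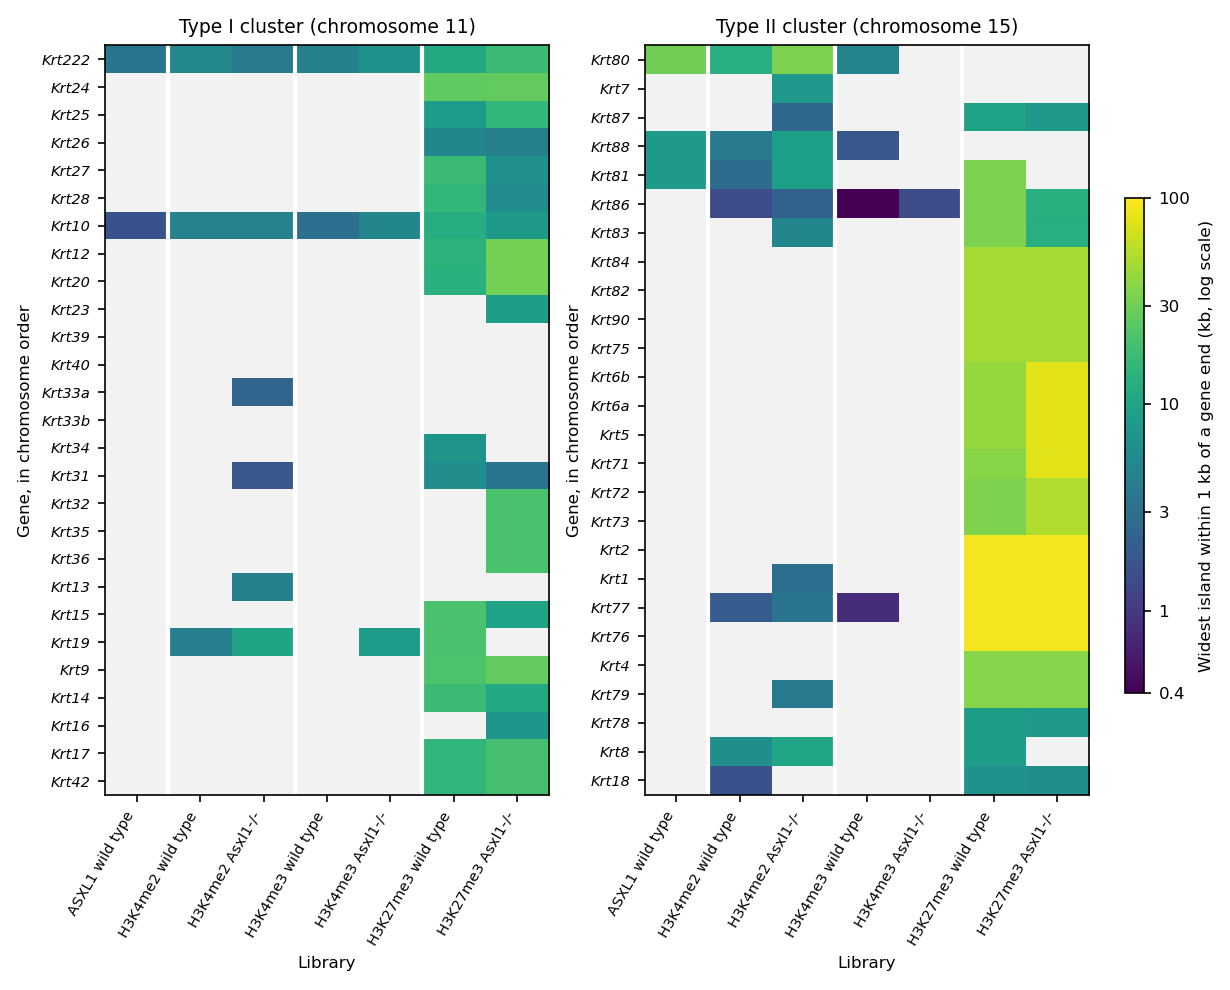
Width in kb of the widest island within 1000 bp of an end of each keratin gene, by library, with genes in chromosomal order from Krt222 to Krt42 (type I) and Krt80 to Krt18 (type II). Light grey cells have no island. The H3K27me3 columns are filled for 40 genes in wild type and 41 in Asxl1-/-, while the H3K4me3 columns hold 6 and 4.

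Between the genotypes, H3K27me3 was kept at 36 keratin genes, lost at 4 and gained at 5, and 8 had it in neither. The 4 lost are 10.0% of the 40 marked in wild type, while 25.8% of all genes marked in wild type lost it. On the chromosomes of the clusters the share of all genes was nearer, at 13.9% on chromosome 11 and 12.7% on chromosome 15, and with islands at least as wide as the median of their list 8 of 36 keratins lost it. The 5 gained are 38.5% of the 13 unmarked in wild type, against 5.6% of all unmarked genes, 10.0% of those on chromosome 11 and 6.38% of those on chromosome 15, although Krt32, Krt35 and Krt36 share 1 island of 20.6 kb, so the 5 gains rest on 3 islands. H3K4me2 was kept at 9, lost at 1 and gained at 8. That is 1 of 10 (10.0%) lost against 2.99% of all genes, and 8 of 43 (18.6%) gained against 8.44%. All genes of chromosome 11 gained H3K4me2 in 14.5% of cases and those of chromosome 15 in 14.3%. The type I keratins, with 3 of 24 (12.5%), were near the share of their chromosome. The type II keratins, with 5 of 19 (26.3%), stood above theirs. H3K4me3 was kept at 3, lost at 3 and gained at 1. That is 3 of 6 lost against 4.18% of all genes, and 1 of 47 (2.13%) gained against 5.63%. The balance turns with the setting, to 1 lost and 3 gained with a window of 0 bp and to 1 lost and 2 gained with islands at least as wide as the median of their list. Counts this small move by a large share with 1 gene, and neighbouring keratins that share an island are not separate observations.

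Taken as combinations, 32 keratin genes in each genotype (60.4%) had H3K27me3 and neither H3K4 mark, against 10.2% of all genes in wild type and 8.89% in Asxl1-/-. In wild type 8 had H3K27me3 and an H3K4 mark, at the same end in 5 of them (Krt19, Krt86, Krt77, Krt8 and Krt18), 2 had an H3K4 mark alone (Krt80 and Krt88), and 11 had none of the 3 marks. In Asxl1-/- cells 9 had both kinds, at the same end in 7 (Krt31, Krt87, Krt86, Krt83, Krt1, Krt77 and Krt79), 8 had an H3K4 mark alone (Krt33a, Krt13, Krt19, Krt80, Krt7, Krt88, Krt81 and Krt8), and 4 had none (Krt39, Krt40, Krt33b and Krt34). A shared end is not always the promoter. It was the end of the RefSeq start at Krt8, Krt18 and Krt79, and the opposite end at Krt77 and Krt31. Krt19, Krt86, Krt87, Krt83 and Krt1 have no RefSeq start in the table. The count of keratins with an H3K4 mark and no H3K27me3 was thus 2 in wild type (3.77%) and 8 in Asxl1-/- (15.1%), where all genes stood at 47.7% and 50.6%. The count with none of the marks was 11 (20.8%) and 4 (7.55%), where all genes stood at 24.9% and 25%. Both kinds of mark were carried by 17.3% and 15.5% of all genes, at the same end by 15.4% and 13.9%, and the keratin counts of 8 and 9 were 15.1% and 17.0%.

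Among the 6 keratins of simple epithelia, H3K27me3 was kept at Krt20 and Krt18, lost at Krt19 and Krt8, gained at Krt23 and missing at Krt7. Krt19 (Gene ID 16669, chr11:100140810-100145926), a type I keratin of ductal and simple epithelia, differed in all 3 marks. In wild type 1 H3K27me3 island of 20.4 kb (chr11:100127800-100148199) spanned Krt15 and the whole of Krt19. In Asxl1-/- the H3K27me3 island there was 9.6 kb long (chr11:100127600-100137199), covered the whole of Krt15 and ended before Krt19. An H3K4me3 island of 8.2 kb (chr11:100140400-100148599) covered all of Krt19 in Asxl1-/-, and no wild-type H3K4me3 island touched it. The H3K4me2 island was 4.2 kb in wild type, over 29.8% of the gene, and 10.0 kb in Asxl1-/-, over 100% of it. Krt19 was the only keratin gene wholly covered by H3K4me3 or by H3K4me2 in any library, and it had no ASXL1 island. With a window of 5000 bp the Krt15 island is counted at Krt19 and the loss of H3K27me3 is no longer called.

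Krt8 (Gene ID 16691, chr15:101996711-102004342), the type II keratin of simple epithelia, had an H3K27me3 island of 8.6 kb over 96.2% of the gene in wild type and none in Asxl1-/-. Its H3K4me2 island, which covers the promoter printed above, was 6.2 kb in wild type against 10.4 kb in Asxl1-/-. No H3K4me3 island lay at Krt8 in either genotype. Krt18 (Gene ID 16668, chr15:102028216-102032026), the type I partner of Krt8 and the 1 type I keratin gene in the type II cluster, kept H3K27me3 at 6.8 and 6.2 kb. Its H3K4me2 island of 1.6 kb over the CG-rich promoter was in wild type alone. An H3K4me2 island of 2.8 kb in Asxl1-/- alone lay between Krt8 and Krt18, so the loss at Krt18 was not called with a window of 5000 bp. H3K4me2 covered 7.11% of Krt8 in wild type and 1.87% in Asxl1-/-, since the wider island runs away from the gene, and 20.6% and 0% of Krt18.

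Krt7 (Gene ID 110310, chr15:101412403-101427806), a type II keratin of glandular and ductal epithelia, had no island of any library at its ends in wild type. In Asxl1-/- an H3K4me2 island of 7.6 kb lay over its promoter and 32.4% of the gene, with no H3K4me3. Krt20, an intestinal keratin, kept H3K27me3 at 13.2 and 31.4 kb, and Krt23 gained it with 8.6 kb over 51.7% of the gene. Of the 31.4 kb island, which also reached Krt12, 89.2% was covered in wild type as well.

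**Figure D2:**
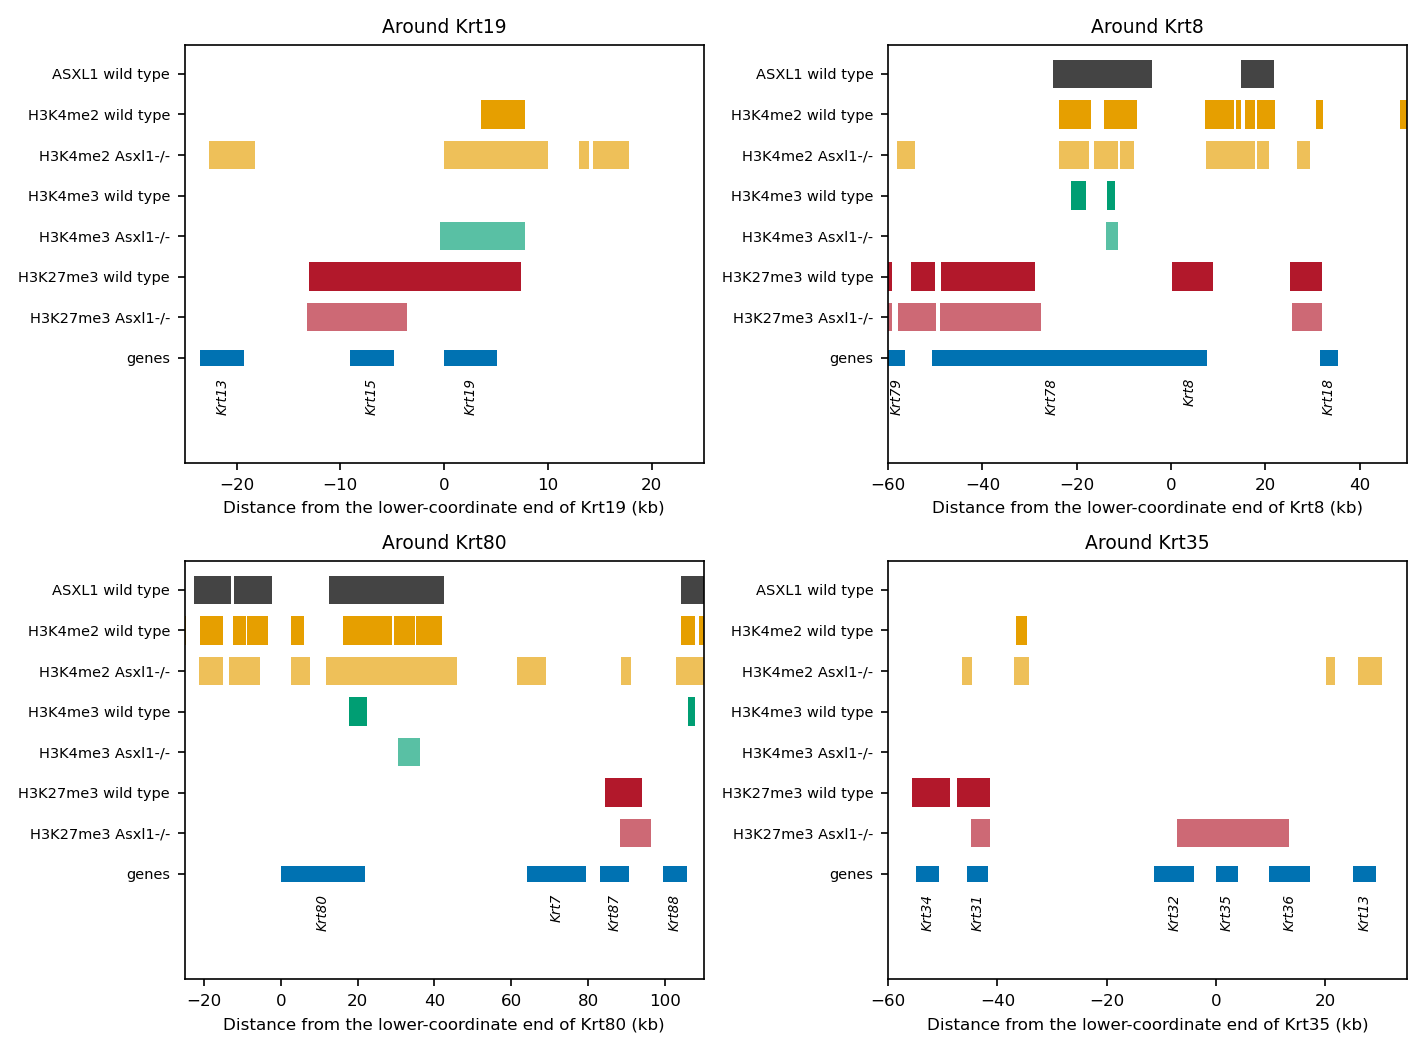
Islands of the 7 libraries around 4 groups of keratin genes, plotted against distance in kb from the lower-coordinate end of Krt19, Krt8, Krt80 or Krt35, with lighter shades for Asxl1-/- and gene bars at the bottom. At Krt19 the H3K27me3 bar reaches over the gene in wild type alone and the H3K4me3 bar in Asxl1-/- alone, and at Krt8 the H3K27me3 bar is in wild type alone. Gene bars that adjoin, such as Krt78 and Krt8, run into each other at this scale.

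The 3 basal keratins Krt5, Krt14 and Krt15 all kept H3K27me3 and had no H3K4 island in either genotype. Krt14 (Gene ID 16664, chr11:100203162-100207510) had H3K27me3 islands of 17.2 and 11.2 kb, and its type II partner Krt5 (Gene ID 110308, chr15:101707069-101712905) islands of 42.0 and 77.4 kb. All 3 genes lay wholly under H3K27me3 in both genotypes. The Krt5 island of 42.0 kb also reached Krt6a and Krt6b in wild type, and the 77.4 kb island reached Krt6b, Krt6a, Krt5 and Krt71 in Asxl1-/-. In wild type a separate H3K27me3 island of 37.8 kb lay over Krt71, and 99.0% of the 77.4 kb island was also covered in wild type.

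Of the 5 stress and appendage keratins, which wounded epidermis and the companion layer of the hair express, Krt6a, Krt6b, Krt17 and Krt75 kept H3K27me3. Krt16, the type I partner of Krt6, gained it with an island of 7.2 kb over 100% of the gene. Krt17 lay under islands of 15 and 19.8 kb that it shared with Krt42, and Krt75 under islands of 47.8 and 49.0 kb that it shared with Krt84, Krt82 and Krt90. None of the 5 had an H3K4 island.

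The 9 suprabasal and cornified keratins kept H3K27me3 in 8 cases. The longest island of either cluster, 90.4 kb in wild type against 91.0 kb in Asxl1-/-, ran over Krt2 of the upper epidermis, Krt1 of the spinous layer, Krt77 and Krt76. Krt9, the keratin of palm and sole, lay under islands of 20.8 and 26.6 kb. Inside the long island Krt77 had H3K4me2 of 2.0 and 3.4 kb and, in wild type alone, H3K4me3 of 0.8 kb, a call that held in only 4 of 8 other settings. Krt1 had H3K4me2 of 3.0 kb in Asxl1-/- alone. Krt79 (chr15:101929332-101940324), of the hair canal, had H3K4me2 of 3.8 kb in Asxl1-/- alone, over the promoter printed above. That promoter was outside H3K27me3 in wild type and wholly under it in Asxl1-/-, while the gene kept islands of 36.4 kb at its other end in both. Krt78 kept H3K27me3, with islands of 5.0 and 8.6 kb at its ends in wild type and 8.0 kb at 1 end in Asxl1-/-. The 8.6 kb island is the same as that of the adjoining Krt8. At the RefSeq start of Krt78, inside its span, H3K27me3 islands were 19.8 and 21.4 kb. Away from its ends, and so not counted as marks, H3K4me2 covered 27.3% and 28.4% of the span and H3K4me3 9.48% and 4.74%.

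Krt10 (Gene ID 16661, chr11:99385254-99397449), the type I partner of Krt1, had both kinds of mark at different ends. At its end of lower coordinates lay ASXL1 of 1.6 kb, H3K4me2 of 4.6 kb in both genotypes and H3K4me3 of 3.0 and 5.0 kb. At the other end lay H3K27me3 of 12.6 and 7.8 kb. The RefSeq start of Krt10 is at 99389364, inside the gene span, and its 300-base promoter lay under no island of any library. Krt80 (Gene ID 74127, chr15:101348315-101370162), of differentiating epithelia, was the exception of its group with no H3K27me3. It had the widest ASXL1 island of either cluster, 30 kb, with H3K4me2 of 13.0 and 34.0 kb. Its H3K4me3 island of 4.8 kb was in wild type alone, and in Asxl1-/- an H3K4me3 island of 5.8 kb started 8.64 kb beyond that end of the gene, inside the same ASXL1 interval.

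The 4 keratins of mucosa and cornea kept H3K27me3 in 3 cases. Krt12, the corneal keratin, lay under islands of 14.2 and 31.4 kb, Krt24 under 25.8 and 26.6 kb and Krt4 under 36.4 kb in both. Krt13 (chr11:100117327-100121566), the type I partner of Krt4 in mucosa, had no H3K27me3. An H3K4me2 island of 4.4 kb lay over its promoter and 79.4% of the gene in Asxl1-/- alone.

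All 7 keratins of the inner root sheath, the layer that moulds the growing hair, kept H3K27me3 and had no H3K4 island. On chromosome 11 the widest islands were 8.4 and 15.4 kb at Krt25, 5.0 and 4.4 kb at Krt26, 17.4 and 6.6 kb at Krt27, and 15.6 and 5.8 kb at Krt28. On chromosome 15 they were 37.8 and 77.4 kb at Krt71, and 34.4 and 51.4 kb at Krt72 and Krt73, which share 1 island. The 77.4 and 51.4 kb islands were also covered in wild type to 99.0% and 98.4%. The type II genes of the group thus lay under wider islands than the type I genes in both genotypes.

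The 15 keratins of hair cortex and cuticle were mixed, with H3K27me3 kept at 6, lost at 2, gained at 3 and missing at 4. It was kept at Krt31 (6.0 and 3.4 kb), Krt87 (9.8 and 8.0 kb), Krt86 (33.8 and 13.2 kb), Krt83 (33.8 and 12.8 kb), and Krt84 and Krt82 (47.8 and 49.0 kb). It was lost at Krt34 (7.0 kb) and Krt81 (33.8 kb, the island that also covers Krt86 and Krt83), and gained at Krt32, Krt35 and Krt36. Krt39, Krt40, Krt33a and Krt33b had it in neither genotype. Of the 33.8 kb island, 76.9% was also covered in Asxl1-/-, by separate islands at Krt86 and Krt83. H3K4me2 was in Asxl1-/- alone at Krt33a (2.4 kb), Krt31 (1.8 kb), Krt87 (2.6 kb) and Krt83 (5.0 and 4.8 kb at its ends). Krt86 kept H3K4me2 of 1.4 and 2.2 kb and H3K4me3 of 0.4 and 1.4 kb at the end that H3K27me3 also covered. Krt81 (Gene ID 64818, chr15:101459061-101463765) had ASXL1 of 7.8 kb and H3K4me2 of 2.8 and 9.0 kb at its end of lower coordinates.

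Of the 4 other keratins, Krt42 shared the islands of Krt17 and Krt90 those of Krt75. Krt88 had no H3K27me3. It shared the 7.8 kb ASXL1 island and the 9.0 kb H3K4me2 island of Asxl1-/- with Krt81, had H3K4me2 of 3.8 kb in wild type, and had H3K4me3 of 1.8 kb in wild type alone. Krt222 had ASXL1 of 3.4 kb, H3K4me2 of 5.2 and 3.8 kb and H3K4me3 of 4.4 and 6.8 kb at the end that adjoins Smarce1, a chromatin remodelling gene with the same islands. Its H3K27me3 of 11.4 and 17.2 kb was at the other end.

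Counted at the transcription start alone, for the 36 genes with a RefSeq start, H3K4me2 was kept at Krt10 and Krt8, lost at Krt18 and gained at Krt13, Krt7 and Krt79. Of all starts in the promoter table, 2.73% of those marked in wild type lost H3K4me2 and 6.88% of those unmarked gained it. H3K4me3 came within 1000 bp of 1 start, that of Krt10, in Asxl1-/- alone and without touching its promoter. Over all starts 3.93% lost H3K4me3 and 4.05% gained it. H3K27me3 was kept at 21 starts, lost at Krt25, Krt34 and Krt8, gained at Krt20, Krt32, Krt36 and Krt79, and missing at 8, while over all starts 27% of those marked lost it and 4.69% of those unmarked gained it. The losses at Krt34 and Krt8 and the gains at Krt32 and Krt36 were therefore called by both rules. The gain at Krt23 was called at a gene end alone, since its start had H3K27me3 in neither genotype. Krt19, Krt81, Krt35 and Krt16 have no RefSeq start in the table, so their calls could not be compared. The changes at Krt25, Krt20 and Krt79 concern 1 end of a gene that was marked in both genotypes at the other.

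H3K27me3 covered keratin genes over their whole length more often than other genes. The median keratin gene was covered over 100% of its length in wild type and 89.1% in Asxl1-/-, and the median of all genes was 0% in both. It covered 29 keratin genes completely in wild type and 25 in Asxl1-/-, against 6.61% and 5.78% of all genes. A short gene is more easily covered whole, and the genes were not matched for length. The islands behind these calls were fewer than the genes. In the type II cluster 11 islands reached 23 genes in wild type and 11 reached 21 in Asxl1-/-, with up to 4 genes on 1 island. In the type I cluster 15 islands reached 17 genes and 17 reached 20.

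As stretches of chromosome the clusters differed from each other. H3K27me3 covered 485.8 kb of the type II cluster in wild type (71.1% of 683.7 kb) and 450.0 kb in Asxl1-/- (65.8%), where chromosome 15 as a whole was covered to 10.3% and 12.4%. It covered 351.6 kb of the type I cluster (33.9% of 1037.2 kb) and 398.8 kb (38.4%), where chromosome 11 was covered to 10.8% and 16.2%. The ratio of Asxl1-/- to wild type was 1.13 in the type I cluster against 1.5 on chromosome 11, and 0.926 in the type II cluster against 1.21 on chromosome 15. The direction in the type I cluster depends on narrow islands. With islands at least as wide as the median of their list, the shares were 29.5% in wild type and 28.5% in Asxl1-/-. Of the wild-type H3K27me3 length, 89.1% was also covered in Asxl1-/- in the type II cluster and 81.5% in the type I cluster.

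**Figure D3:**
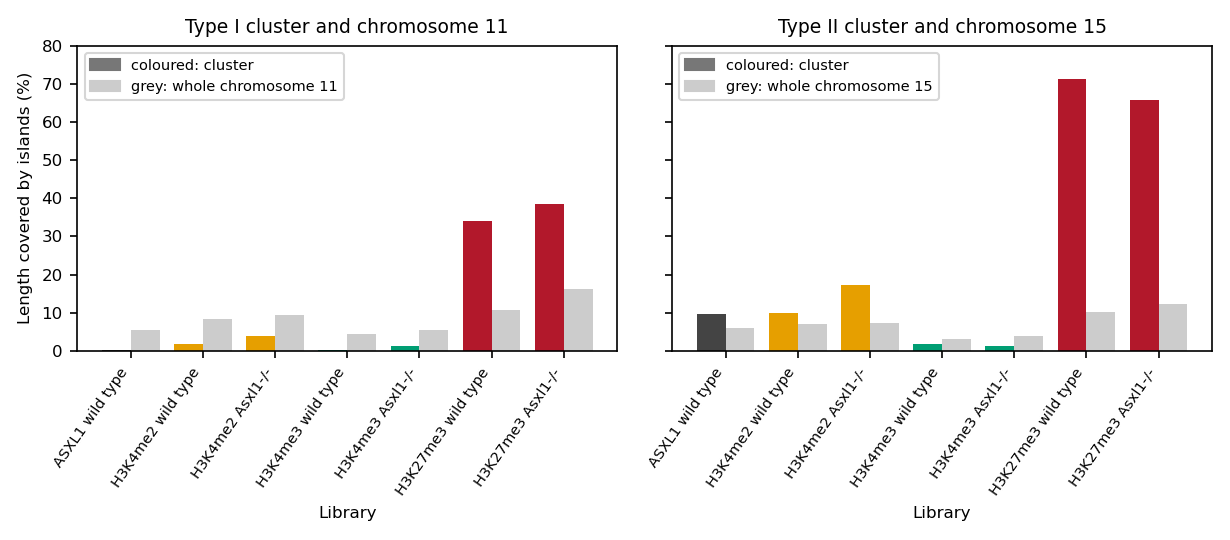
Percent of each cluster covered by islands of each library, with the percent of its whole chromosome beside it and axes that start at 0. For H3K27me3 the type II cluster stands at 71.1% in wild type and 65.8% in Asxl1-/-, and chromosome 15 at 10.3% and 12.4%.

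H3K4me2 covered more of both clusters in Asxl1-/- than in wild type. The lengths were 20.0 and 41.6 kb in the type I cluster (1.93% and 4.01%) and 67.2 and 117.8 kb in the type II cluster (9.83% and 17.2%). The ratios were 2.08 and 1.75, against 1.13 on chromosome 11, 1.04 on chromosome 15 and 0.927 over the autosomes. Of the H3K4me2 islands of Asxl1-/-, 8 of 15 in the type I cluster and 9 of 19 in the type II cluster touched no wild-type island, against 21.6% on the autosomes. Of the H3K4me2 islands of wild type, 1 of 8 and 1 of 15 touched none of Asxl1-/-, against 27.4% on the autosomes. Such shares were not computed for chromosomes 11 and 15 alone. H3K4me3 covered 3.0 and 14.2 kb of the type I cluster, of which 8.2 kb is the Krt19 island, and 12.6 and 9.6 kb of the type II cluster. The type I ratio of 4.75 therefore rests on 3 islands. In the type II cluster the direction turns with islands at least as wide as the median of their list, at 0.702% in wild type and 0.848% in Asxl1-/-.

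**Figure D4:**
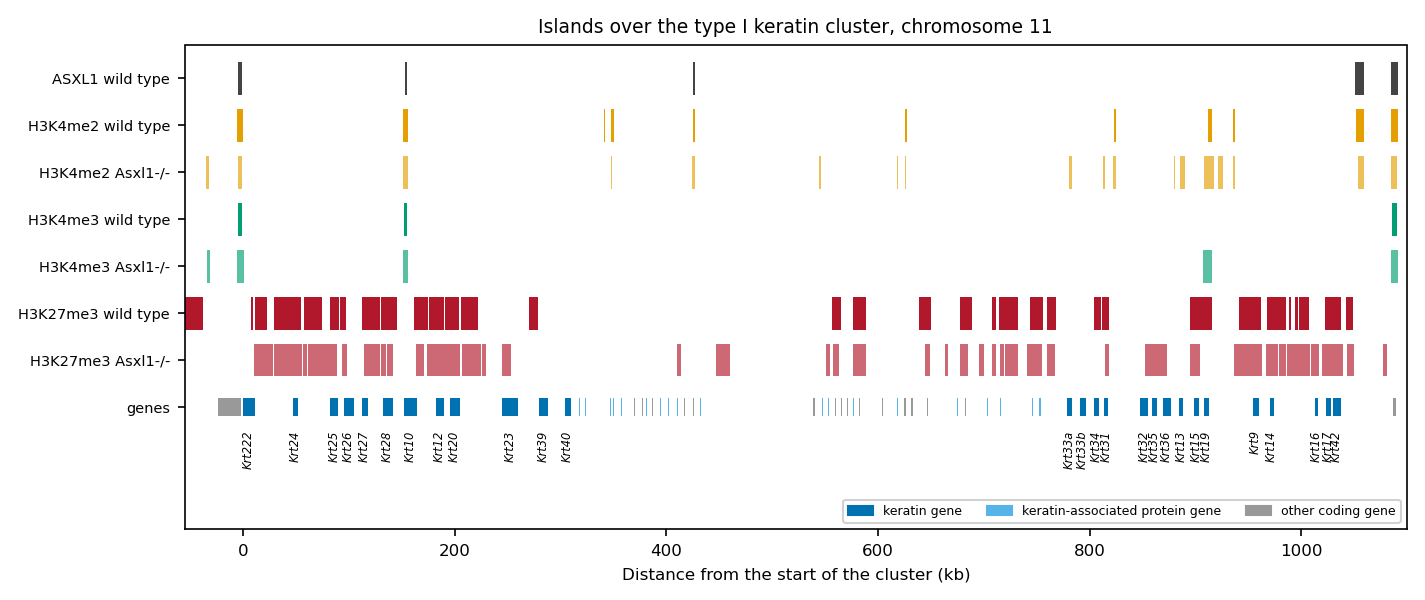
Islands over the type I cluster by library (rows, lighter shades for Asxl1-/-) against distance in kb from the start of the cluster, with genes in the bottom row. H3K27me3 covers 53.5% and 55.7% of the stretch from Krt222 to Krt40 and 18.0% and 21.8% of the middle with the keratin-associated protein genes, and the longest H3K4me2 island of Asxl1-/-, 10.0 kb, lies at Krt19.

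Within the type I cluster the parts differed. From Krt222 to Krt40, with Krt10 and the inner root sheath genes, H3K27me3 covered 53.5% in wild type and 55.7% in Asxl1-/-, and H3K4me2 4.6 kb in both. In the 468.0 kb between Krt40 and Krt33a, which holds 23 keratin-associated protein genes and no keratin, H3K27me3 covered 18.0% and 21.8% and no H3K4me3 island was listed in either genotype. From Krt33a to Krt42, with the hair keratins, Krt13, Krt19 and Krt14, H3K27me3 covered 39.0% and 48.0%, and H3K4me2 8.0 and 29.2 kb. The larger H3K4me2 cover of the type I cluster in Asxl1-/- thus lay in the segment of Krt19 and Krt13.

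Within the type II cluster the 19 keratins from Krt81 to Krt79 were covered by H3K27me3 to 90.6% in wild type and 84.8% in Asxl1-/-, and by H3K4me2 over 4.34 and 28.7 kb. The ends of the cluster were different. From Krt80 to Krt88 H3K27me3 covered 9.28% and 7.57%, ASXL1 29.9% and H3K4me2 28.3% and 49.2%. From Krt78 to Krt18 H3K27me3 covered 41.6% and 33.0%, ASXL1 32.5% and H3K4me2 33.5% and 34.9%. A wild-type H3K27me3 island of 19.2 kb between Krt83 and Krt84 (chr15:101498400-101517599) had no counterpart in Asxl1-/-, where an H3K4me2 island of 5.2 kb (chr15:101504800-101509999) lay inside the same interval.

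**Figure D5:**
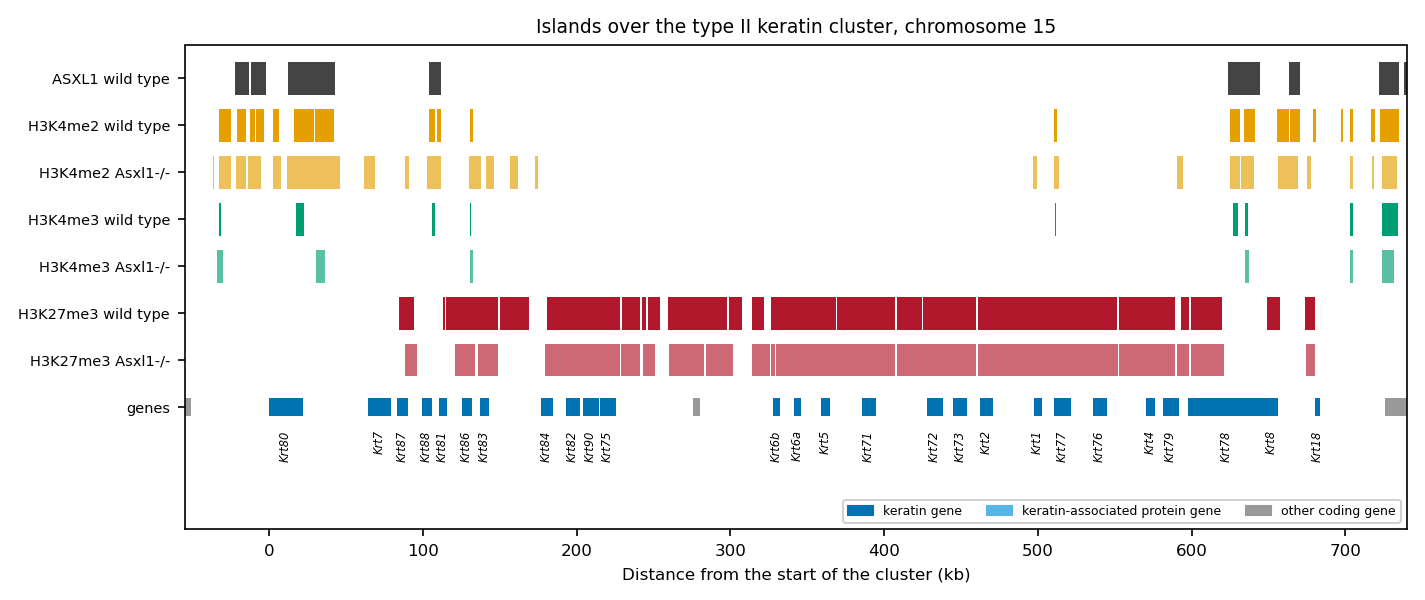
Islands over the type II cluster by library (rows, lighter shades for Asxl1-/-) against distance in kb from the start of the cluster, with genes in the bottom row. H3K27me3 covers 90.6% and 84.8% of the stretch from Krt81 to Krt79, while the 4 ASXL1 islands stand toward the ends, at Krt80, at Krt88 and Krt81, and between Krt79 and Krt18.

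ASXL1 had 6 islands inside the clusters, 2 in type I (1.6 kb at Krt10 and 2.0 kb among the keratin-associated protein genes) and 4 in type II (30 kb at Krt80, 7.8 kb at Krt88 and Krt81, 21.0 kb inside the annotated span of Krt78, and 7.0 kb between Krt8 and Krt18). All 6 overlapped H3K4me2 of wild type, as 95.3% of the 17065 autosomal ASXL1 islands did. H3K4me3 of wild type overlapped 4 of them, against 71.4% of all, and H3K27me3 of wild type 0, against 9.22%. None of the 4 keratins that lost H3K27me3 apart from Krt81 had ASXL1 at an end. At Krt81 the ASXL1 island and the H3K27me3 island lay at opposite ends. Of the 3 keratins that lost H3K4me3, Krt80 and Krt88 had ASXL1 at that end and Krt77 had none. Of the 3 that kept it, Krt222 and Krt10 had ASXL1 and Krt86 had none.

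The genes next to the clusters were mixed. Of the 5 coding genes above the type II cluster, Eif4b, Tns2, Spryd3, Igfbp6 and Soat2, all 5 had ASXL1 and H3K4me2, and none had H3K27me3 in either genotype. Below it, Acvr1b, Grasp, Nr4a1 and Atg101 had ASXL1 and both H3K4 marks, and Acvr1b alone also had H3K27me3 (14.6 and 11.2 kb). Smim41, the nearest, had no island. Below the type I cluster Smarce1 and Top2a had ASXL1 and both H3K4 marks, Ccr7 had H3K27me3 of 24.6 and 31.8 kb, Igfbp4 had both H3K4 marks and H3K27me3 of 10.4 kb in wild type alone, and Tns4 had H3K4me2 of 1.0 and 3.2 kb. Above it Eif1, Jup and P3h4 had ASXL1 and both H3K4 marks and no H3K27me3. Hap1 kept H3K27me3 of 15 and 14.8 kb beside both H3K4 marks, and Gast had H3K27me3 of 10.6 kb in Asxl1-/- alone.

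Keratin-associated proteins cross-link hair keratins, and 23 of the 56 coding genes of this family lie inside the type I cluster. None of the 56 had H3K4me3 or ASXL1. Of all genes, 59.8% had H3K4me3 in wild type and 59.6% in Asxl1-/-, and 51.4% had ASXL1. H3K27me3 marked 15 in each genotype, a share near the 27.4% and 24.4% of all genes and below that of the keratins, and 13 kept it. It was lost at Krtap5-5 (7.0 kb) and Krtap9-1 (11.2 kb), and gained at Krtap4-7 (4.2 kb) and Krtap4-9 (3.6 kb). Over all genes, 25.8% of those marked lost H3K27me3 and 5.6% of those unmarked gained it. H3K4me2 marked 2 in wild type and 3 in Asxl1-/-, against 64.7% and 65.7% of all genes. It was kept at 2 and gained at Krtap4-16 (1.4 kb), where 8.44% of all unmarked genes gained it.

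Of 15 desmosome, hemidesmosome and linker genes, which anchor keratin filaments, H3K4me2 was kept at 13 and H3K4me3 at 10. H3K4me3 marked 12 in wild type and 10 in Asxl1-/-, where the shares of all genes were 59.8% and 59.6%. H3K4me2 marked 13 in each genotype, against 64.7% and 65.7% of all genes. H3K4me3 was lost at Pkp1 (1.8 kb) and Perp (1.4 kb), both desmosomal genes, and gained at none. Of all genes marked in wild type, 4.18% lost H3K4me3. H3K27me3 was kept at 4, lost at the integrin gene Itga6 (5.8 kb) and at Evpl (8.2 kb), which codes for envoplakin, and gained at the plakophilin gene Pkp3 (24.6 kb). H3K27me3 marked 6 in wild type and 5 in Asxl1-/-, against 27.4% and 24.4% of all genes. Over all genes, 25.8% of those marked lost H3K27me3 and 5.6% of those unmarked gained it.

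Of 16 epithelial regulators and surface genes, H3K27me3 was kept at 12 and lost at Cldn4 (2.2 kb), a claudin. H3K4me3 was kept at 7, lost at Elf3 (1.6 kb), Esrp1 (3.4 kb) and Cdh1 (2.4 kb, E-cadherin), and gained at Grhl3 (1.2 kb). These 4 genes had H3K27me3 in both genotypes, as at Cdh1 with 14.8 and 14.4 kb. H3K4me2 was kept at 13 and was lost or gained at none. In wild type and Asxl1-/-, H3K27me3 marked 13 and 12 of the 16, against 27.4% and 24.4% of all genes. H3K4me3 marked 10 and 8, against 59.8% and 59.6%, and H3K4me2 13 and 13, against 64.7% and 65.7%. Of all genes marked in wild type, 25.8% lost H3K27me3 and 4.18% lost H3K4me3. Of those unmarked, 5.63% gained H3K4me3.

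Of the 15 other intermediate filament genes, the sister families of the keratins, H3K4me3 was kept at 10 and gained at the neurofilament gene Nefm (1.4 kb) and at Ina (3.2 kb), which codes for internexin. Vim, the vimentin gene of stromal cells, had ASXL1 of 19.2 kb, H3K4me3 of 12.4 and 10.6 kb and no H3K27me3. H3K27me3 was kept at 7, lost at the desmin gene Des (15.6 kb), the lens gene Bfsp1 (33.0 kb) and the nestin gene Nes (20.6 kb), and gained at Bfsp2 (7.4 kb). H3K27me3 marked 10 in wild type and 8 in Asxl1-/-, against 27.4% and 24.4% of all genes. H3K4me2 was kept at 12 and gained at Des (3.0 kb). Over all genes, 25.8% of those marked lost H3K27me3. Of all unmarked genes, 5.6% gained H3K27me3, 5.63% gained H3K4me3 and 8.44% gained H3K4me2. H3K4me3 thus marked 10 and 12 of these 15 genes, against 6 and 4 of the 53 keratins and 59.8% and 59.6% of all genes.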

How the data were processed

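Per the submitters' processing notes, reads were aligned with BWA and islands were called with SICER 1.1 on mm10. For the BWA version, the caller's settings and its control, nothing is given in the sources used here. The 7 lists that the authors deposited give only the chromosome, start and end of each island. Their depth is therefore unknown and no test between genotypes was computed. A binomial interval over windows of 200 bp served only to choose which shifts in cluster cover are printed below. Neighbouring windows are not independent, so that interval measures no spread between libraries. Island starts and ends lie on a 200 bp grid.

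Genes came from a RefSeq table of GRCm38.p6, the assembly of mm10, and 300-base promoters and starts from a RefSeq promoter table. Islands were joined to gene ends within 1000 bp with at least 1 bp of overlap, on 19 autosomes, with Python 3.11.15, numpy 2.4.6 and pandas 2.3.3. The interval code was tested on a toy list and on the wild-type lists after islands of chosen genes were removed. Planted losses were thus tested and gains were not. Every autosomal coding gene was called the same way for the background shares. Named genes are every keratin with an island, the changed genes of each list up to 6 by width, flanking genes with an island, and Asxl1. The members, lists and tests were chosen with earlier results of these data known. Alternatives covered the window, overlap, island width, list length, span and transcription starts.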

Additional observations from a re-analysis of the deposited data

How the results depend on the processing

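Of 176 recomputed single-gene calls 160 held and 15 were no longer made, and 1 turned in direction. Krt18 H3K4me2 was 1.2 kb wider in Asxl1-/- with a window of 5000 bp. The Krt77 H3K4me3 loss held in 4 of 8 settings, the Krt18 and Krt33a H3K4me2 and Krt88 H3K4me3 calls in 6, and those at Krt16, Krt19 (H3K27me3), Krt31, Krt34, Krt83 and Krt87 in 7. With a window of 0 bp, 3 keratins had ASXL1 and 2 had wild-type H3K4me3, which was kept at 1, lost at 1 and gained at 3. With 500 bp, 3 had ASXL1 and 2 gained H3K4me3. With 5000 bp, 0 lost H3K4me2 and 3 gained H3K4me3. With lists of equal length, 2 gained H3K4me3. At the 36 starts, ASXL1 and wild-type H3K4me3 marked 0, and H3K4me3 was kept at 0, lost at 0 and gained at 1.

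With islands at least as wide as the median of their list, 3 keratins had ASXL1, 6 had wild-type H3K4me2 and 2 wild-type H3K4me3. H3K4me2 was lost at 0, H3K4me3 kept at 1, lost at 1 and gained at 2, and H3K27me3 lost at 8. The type I cluster was then covered to 0% by ASXL1, 1.16% and 2.16% by H3K4me2, 0% by wild-type H3K4me3 and 29.5% and 28.5% by H3K27me3. The type II cluster was covered to 8.19% and 15.4% by H3K4me2, 0.702% and 0.848% by H3K4me3 (opposite in direction to the whole lists) and 66.5% and 61.0% by H3K27me3.

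With 50 kb added on each side, the type I shares were 1.56% for ASXL1, 3.09% and 4.96% for H3K4me2, 0.752% and 2.21% for H3K4me3 and 36.2% for H3K27me3 in Asxl1-/-. The type II shares were 12.4% for ASXL1, 13.7% and 19.7% for H3K4me2, 3.37% and 2.88% for H3K4me3 and 62.0% and 57.4% for H3K27me3. Without Krt8 and Krt18 the type II shares were 8.05% and 15.8% for H3K4me2 and 68.5% for H3K27me3 in Asxl1-/-. The cause of these shifts was not tested beyond the smaller number of islands or the longer span. No paired analysis was possible because each target has 1 library per genotype.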
